A study of Rattus norvegicus with 4 samples.

Results

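The untreated cultured neonatal rat ovary was described from the 2 control arrays of a series of 4. Each control sample was RNA from whole ovaries of 4-day-old female rats kept in floating-filter organ culture for 2 days with no factor added. The serum-free medium of these ovaries contained insulin (200 ng/ml), transferrin (27.5 ug/ml), ascorbic acid (0.05 mg/ml), bovine serum albumin (0.1%) and albumax (0.1%). Each sample pooled 6 to 10 ovaries and was hybridised to 1 Affymetrix rat array, and the labels used here name no strain. The members are the 31042 probe sets of each array that are not Affymetrix controls. They were reduced to 14217 genes by keeping, for each gene symbol, the probe set with the highest mean signal of the 2 arrays. The other 2 arrays of the series, from ovaries cultured with GDNF, were not used, and no treatment was compared. Nothing in the labels ties the 2 control pools to different litters or cultures, so the spread between them may be technical.

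The ovary of a rat pup of this age is packed with primordial follicles, in which an oocyte arrested in meiotic prophase is enclosed by flattened pre-granulosa cells. A few follicles have begun to grow, and their oocytes lay down a zona pellucida while their granulosa cells become cuboidal and start to make anti-Müllerian hormone. Theca cells, which later make androgens from cholesterol, differentiate around growing follicles. The rest of the organ is stroma, vessels, resident macrophages and a surface epithelium.

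Signals are MAS5 values on a linear scale with no physical unit. For each gene, both values are given in the order control replicate 1, control replicate 2. The percentile of a gene is the share of the 14217 genes with a lower mean signal. Probe sets differ in how strongly they bind their target, so a percentile ranks brightness on the array, not transcript number, and no fold between genes is given. The top 10% of genes began at a mean signal of 628, and the median gene had 103. A gene was called near background when its mean was at or below 22.05, the 40th percentile over all probe sets. By these rules 1421 genes were in the top 10% (10.0% of all) and 3626 were near background (25.5%). As a measured background, 74 genes that mark other organs, such as lens crystallins, pancreatic enzymes and protamines, were read out in the same way. Of these, 67 were near background and none was in the top 10%, and their median percentile was 10.1. The brightest of them were Slc12a1, a kidney salt transporter (110 and 124), and the liver enzyme Cyp2e1 (130 and 69.0), so single genes outside the ovary's known repertoire can reach the level of the median gene. A gene near background may still be expressed, at a level the array could not separate from such genes.

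The 2 arrays ranked the genes nearly alike. Over the 14217 genes, log2(signal + 1) correlated at Pearson r = 0.974 and Spearman rho = 0.988, across genes, which are not independent replicates. Of all genes, 91.8% were within 2-fold of each other on the arrays. The agreement depended on brightness. Among the 10591 genes above the near-background limit, 99.3% were within 2-fold and 95.9% within 1.5-fold. In the top 10% of genes, 99.9% were within 2-fold, and the median absolute log2 difference was 0.093. Among genes near background only 69.8% were within 2-fold, with a median absolute log2 difference of 0.595. Order among the dim genes is therefore not interpreted below.

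**Figure D1:**
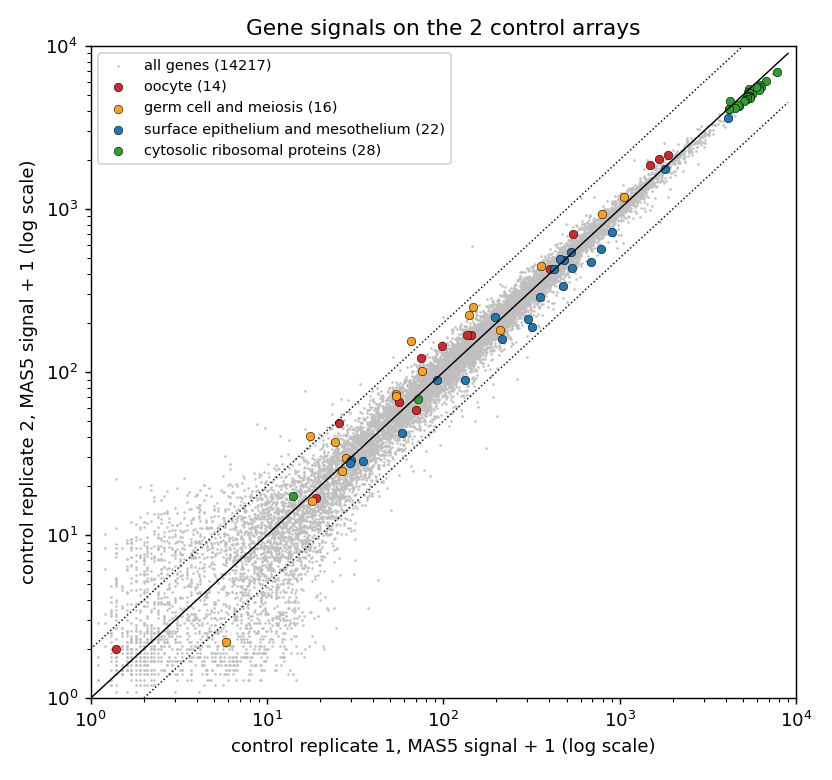
Signals of the 14217 genes on control replicate 1 (horizontal axis) and control replicate 2 (vertical axis), as MAS5 signal + 1 on log scales; the solid line marks equal signals and the dotted lines a 2-fold difference. Points fan out below a signal of about 22.05, ribosomal protein genes sit in the upper right corner, most oocyte and germ cell genes lie above the solid line and most surface epithelium genes below it.

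The brightest signals came from protein synthesis and respiration. The brightest gene of all was COX1 (8007 and 7173), a cytochrome oxidase subunit encoded in mitochondrial DNA, and COX2, another such subunit, was the fourth (7411 and 6794). Ribosomal proteins took 20 of the 25 brightest places and 38 of the 100 brightest, led by Rps23 (7849 and 6964) and Rps29 (7681 and 6995). The remaining 3 of the top 25 were the actin-binding peptide Tmsb4x (6580 and 5845), the translation elongation factor Eef1a1 (6036 and 5609) and Sat1 (5864 and 5192), which acetylates spermine and spermidine. All of the 25 except Rpl11 (5414 and 5462) were somewhat brighter on replicate 1, by at most a log2 of 0.19. The next gene down was Col3a1 (5469 and 4938), a fibrillar collagen chain and the brightest gene of the matrix lists.

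Oocyte genes ranged from among the brightest on the array to background. Zp3 and Zp2, which encode zona pellucida glycoproteins, had signals of 1665 and 2014 and of 1478 and 1872, at percentiles 98.2 and 97.9. Ooep, a member of the subcortical maternal complex of the egg, was as high (1884 and 2149, percentile 98.5). Gdf9, a TGF-beta family ligand made by oocytes, lay just below the lower bound of the top 10% (545 and 706). These 4 were all brighter on replicate 2. Zp1, another zona glycoprotein, was at the level of the median gene (97.2 and 143, percentile 53.7). Bmp15, the partner of Gdf9, was dimmer (55.1 and 64.1, percentile 39.0). Kit, the receptor for Kit ligand, had one value close to the limit and one above it (24.5 and 47.4). Mos, a kinase of meiotic maturation, gave no signal above background (0.4 and 1.0). Of the 14 oocyte genes measured, 3 were in the top 10%, 8 at or above the median gene and 2 near background. The median percentile of the list was 56.4. Figla, Nobox, Oosp1 and 13 others of the 30 listed had no probe set with their symbol alone.

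**Figure D2:**
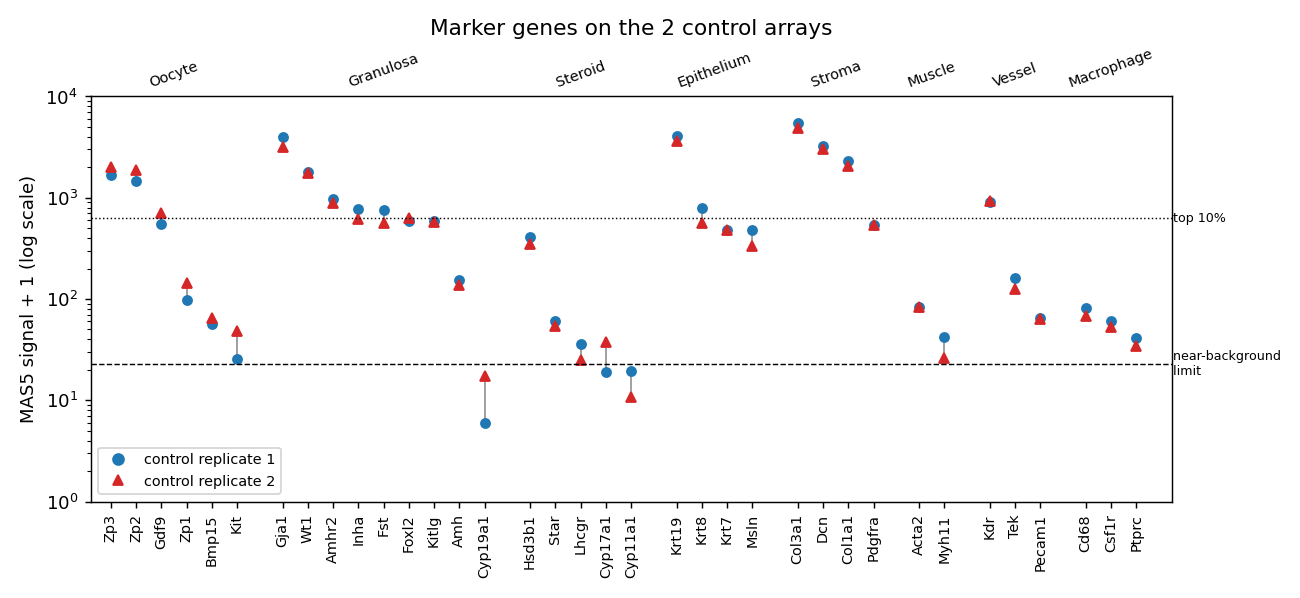
MAS5 signal + 1 (log scale, vertical axis) of marker genes on control replicate 1 (circles) and control replicate 2 (triangles), with the top 10% and near-background limits as horizontal lines. Zp3, Zp2, Gja1, Krt19 and the collagens lie at or above the upper line on both arrays, while Cyp19a1, Cyp17a1 and Cyp11a1 lie near or below the lower one.

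Upstream sequences are shown for 3 oocyte genes, of which Zp3 was bright and Zp1 near the median gene, and for 2 ribosomal protein genes from the top of the ranking. They are the 250 bases before the annotated start of each gene in RefSeq, build GRCr8, with capitals marking TATAAA on either strand and the E-box CANNTG, the kind of element that the oocyte factor Figla binds in zona gene promoters. The intervals are chr1:216992149-216992398, minus strand for Zp1, chr12:26334127-26334376, minus strand for Zp3, chr10:38096301-38096550, plus strand for Gdf9, chr2:23814267-23814516, plus strand for Rps23 and chr7:113507991-113508240, minus strand for Rpl3.
Zp1: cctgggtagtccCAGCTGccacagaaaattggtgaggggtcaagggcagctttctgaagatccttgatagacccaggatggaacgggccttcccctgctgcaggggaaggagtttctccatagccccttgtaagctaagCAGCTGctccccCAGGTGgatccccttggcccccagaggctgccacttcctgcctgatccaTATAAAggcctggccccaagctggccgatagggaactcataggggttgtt
Zp3: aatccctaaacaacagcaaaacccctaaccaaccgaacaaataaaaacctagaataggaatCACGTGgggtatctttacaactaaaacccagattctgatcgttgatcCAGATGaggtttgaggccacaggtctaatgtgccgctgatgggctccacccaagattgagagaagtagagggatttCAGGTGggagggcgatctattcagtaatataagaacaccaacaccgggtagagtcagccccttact
Gdf9: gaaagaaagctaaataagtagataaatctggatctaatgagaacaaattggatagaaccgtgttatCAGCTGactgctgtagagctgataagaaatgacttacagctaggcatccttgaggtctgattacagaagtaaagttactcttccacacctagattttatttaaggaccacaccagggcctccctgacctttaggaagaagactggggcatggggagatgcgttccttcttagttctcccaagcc
Rps23: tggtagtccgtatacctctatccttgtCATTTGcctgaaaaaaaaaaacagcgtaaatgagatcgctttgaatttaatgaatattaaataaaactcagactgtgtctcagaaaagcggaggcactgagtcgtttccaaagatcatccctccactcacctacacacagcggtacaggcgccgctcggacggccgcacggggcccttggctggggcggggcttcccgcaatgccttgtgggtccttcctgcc
Rpl3: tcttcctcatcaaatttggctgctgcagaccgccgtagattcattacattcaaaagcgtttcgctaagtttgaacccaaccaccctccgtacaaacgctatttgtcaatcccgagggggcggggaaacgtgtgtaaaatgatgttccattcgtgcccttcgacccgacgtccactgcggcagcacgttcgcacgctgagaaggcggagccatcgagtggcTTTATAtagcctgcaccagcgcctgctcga
The windows of Zp1 and Zp3 each held 3 CANNTG matches, Gdf9 and Rps23 held 1 and Rpl3 none. TATAAA was found in Zp1, beginning 50 bases before the start, and on the opposite strand in Rpl3, 30 bases before it. CANNTG is a common word: 65.5% of the 33469 windows of this length in the RefSeq table held it, against 12.9% for TATAAA, and the motifs did not overlap each other in these 5. The dinucleotide CG occurred 14 times before Rps23 and 21 times before Rpl3, against 2 times before Zp1, 6 before Zp3 and 2 before Gdf9. Over the 1207 of 1421 genes in the top 10% that had an entry, the median was 18 CG per window, over the 11733 of 14217 genes ranked it was 15, and over the 5716 of 7107 genes below the median gene it was 10. CANNTG was held by 53.2% of the top 10%, 58.8% of the genes ranked and 63.2% of the genes below the median gene. For the near-background genes and the oocyte list a check of this kind is void, because fewer than 80% had an entry (79.3% and 71.4%). The genes below the median gene, of which 80.4% had an entry, include the near-background genes, so missing entries bear on their values too.

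Germ cell and meiosis genes were dimmer as a list than the oocyte genes. Tdrd1, a Tudor protein of the piRNA pathway, had signals of 1054 and 1177 (percentile 95.8), and Tex15, another germline factor, 790 and 932 (93.8). Sycp3, a lateral element protein of the synaptonemal complex, had 358 and 446 (82.4), and the meiotic cohesin Smc1b 147 and 248 (66.2). Msh5, a meiotic crossover protein, and Spo11, the enzyme that makes meiotic double-strand breaks, were near background (17.1 and 15.1, and 4.9 and 1.2). Of the 16 genes measured, 2 were in the top 10% and 2 near background, with a median percentile of 43.0. Ddx4 and Dazl, widely used germ cell markers, had no probe set with their symbol alone.

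Granulosa and pre-granulosa genes ran from among the brightest on the array to background. The gap junction protein Gja1 led the list (3946 and 3191, percentile 99.5). Wt1, a transcription factor shared by pre-granulosa cells and surface epithelium, had 1805 and 1758 (98.1), Gata4 940 and 949 (94.5) and Amhr2, the receptor for anti-Müllerian hormone, 968 and 888 (94.4). Foxl2, the transcription factor that keeps granulosa identity, had 591 and 624 (89.4), and Kitlg, the ligand for Kit on the oocyte, 582 and 569 (88.6). For each of Wt1, Gata4, Foxl2 and Kitlg the 2 arrays differed by no more than a log2 of 0.08. Of the 24 list genes above the near-background limit, 17 were higher on replicate 1, where 48.3% of all genes were. The median log2 difference of the 24, replicate 2 minus replicate 1, was -0.12. Amh, the hormone of growing follicles, was lower in the ranking (154 and 138, percentile 58.2). The steroidogenic transcription factors Nr5a2 (294 and 221) and Nr5a1 (136 and 106) were at percentiles 72.6 and 53.9. Cyp19a1, the aromatase that makes estrogen, was near background on both arrays (5.0 and 16.3), as were the estrogen receptor Esr2 (10.1 and 4.4) and the Wnt activator Rspo1 (9.2 and 3.3). Of the 31 genes measured, 11 were in the top 10%, 21 at or above the median gene and 7 near background, with a median percentile of 77.1. The count near background was close to the share of all genes (25.5%). Fshr, the receptor for follicle-stimulating hormone, had no probe set with its symbol alone.

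Theca and steroid synthesis genes ran from the top 10% to background. Tspo, a mitochondrial outer membrane protein of cholesterol handling, had 701 and 682 (percentile 91.3), and Fdx1, the ferredoxin that passes electrons to mitochondrial P450 enzymes, 635 and 670 (90.5). Both proteins serve cells other than theca as well. Hsd3b1, which converts pregnenolone to progesterone, was bright for an enzyme specific to steroid-making cells (405 and 344, percentile 80.9). Star, which carries cholesterol into mitochondria, was lower (60.1 and 52.8, percentile 38.0), as was Hsd17b1, which makes estradiol from estrone (60.3 and 36.2). Cyp11a1, the side-chain cleavage enzyme that begins steroid synthesis, was near background (18.5 and 9.7). Cyp17a1, which makes androgens, lay on either side of the limit (17.8 and 36.8), and Lhcgr, the luteinizing hormone receptor, just above it (34.9 and 24.1). Insl3, a peptide hormone of theca cells, and the adrenal enzyme Cyp21a1 were near background (2.1 and 4.1, and 1.1 and 1.3). Of the 21 genes measured, 2 were in the top 10%, 10 at or above the median gene and 5 near background, with a median percentile of 44.8.

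Hormone receptors were mostly dim. The brightest was Pgrmc1, a membrane-bound heme protein named for progesterone binding (1782 and 1692, percentile 98.1). Nr2f2, an orphan receptor of stroma, had 426 and 489 (84.8) and Nr3c1, the glucocorticoid receptor, 469 and 400 (83.8). The nuclear receptors for progesterone, Pgr (17.6 and 13.5), and for estrogen, Esr1 (10.5 and 1.4), were near background, and Oxtr, the oxytocin receptor, gave 0.4 and 0.6. Insr, the receptor for the insulin that the medium supplied, was above the near-background limit but below the median gene (36.3 and 36.1, percentile 31.7). Its mean of 36.2 was level with the 95th percentile of the 74 genes that mark other organs (36.2). The other probe set of Insr had a mean of 11.95. Of the 25 receptor genes measured, 1 was in the top 10%, 8 at or above the median gene and 8 near background, with a median percentile of 34.1. As a check on hormones made elsewhere, 18 of the 21 pituitary and gut hormone genes were near background and none was in the top 10%. The highest of them was the neuropeptide Npy (107 and 89.6, percentile 49.0).

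In the TGF-beta family, 30 of the 31 genes measured were above the near-background limit. Among ligands and binding proteins, Fstl1, a follistatin-like secreted protein, had 1076 and 1162 (percentile 95.8), Inha, the inhibin alpha subunit, 770 and 612 (91.2) and Fst, which binds activin, 758 and 564 (90.7). The beta subunits that Inha pairs with were lower in the ranking, Inhbb at 303 and 358 and Inhba at 287 and 222. Inhbb was brighter on replicate 2 and the other 2 inhibin genes on replicate 1. Smad4, the shared signal transducer of the family, had 675 and 728 (91.4). Grem1, a secreted antagonist of bone morphogenetic proteins, was the list's 1 gene near background (7.8 and 2.3). Of the 31 genes measured, 6 were in the top 10% and 19 at or above the median gene, with a median percentile of 65.9.

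Among peptide growth factors the insulin-like system led. Igfbp5, a binding protein for insulin-like growth factors, had 4420 and 3832 (percentile 99.6), Igfbp2 1712 and 1983 (98.3), the ligand Igf1 1562 and 1395 (97.5) and Igfbp7 1319 and 1394 (97.1). Igf2, the fetal ligand, had 408 and 479 (84.2) on its brightest probe set, and its other 3 probe sets had means from 1.85 to 4.00. Pdgfra, a receptor of stromal cells, had 537 and 543 (87.8). Gdnf, the factor added to the ovaries of the series that were not used, was near background here (0.9 and 1.2), as was the cytokine Lif (1.8 and 1.8). Of the 44 genes measured, 7 were in the top 10% and 14 near background, with a median percentile of 50.9.

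Surface epithelium and stroma gave strong signals. Krt19, an epithelial keratin, had 4091 and 3632 (percentile 99.6), Krt8 784 and 568 (90.9) and its partner Krt18 300 and 210 (72.4). Lrrn4, a mesothelial membrane protein, had 901 and 727 (93.2). The dimmest members, Lgals7 (28.8 and 27.9) and the claudin Cldn4 (28.6 and 26.8), were still above the near-background limit. Of the 22 epithelial genes measured, 4 were in the top 10%, 17 at or above the median gene and none near background, with a median percentile of 80.0. In the stromal list, the small proteoglycan Dcn had 3208 and 3006 (99.4), the calcification inhibitor Mgp 2847 and 2746 (99.3) and the intermediate filament gene Vim 2639 and 2575 (99.1). Of its 25 genes, 10 were in the top 10%, 15 at or above the median gene and 4 near background, with a median percentile of 87.8. In RNA from whole ovaries, fewer cells of a type and less RNA per cell cannot be told apart, here or in any list.

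Vessels, muscle and blood-borne cells were lower in the ranking. Kdr, the main endothelial receptor for vascular endothelial growth factor, was bright (903 and 920, percentile 94.3). Other endothelial markers were near or below the median gene: Emcn had 126 and 161 (57.9), Tek 160 and 124 (57.6) and Pecam1 63.4 and 61.8 (39.8). Of the 22 endothelial genes measured, 1 was in the top 10% and 6 near background, with a median percentile of 39.4. Smooth muscle genes were led by the widely expressed Cald1 (853 and 992) and Tpm1 (786 and 871), followed by Myl9 (530 and 640, percentile 88.9). Smtn, Tpm2, Tagln and Des were above the median gene, at percentiles 58.3, 57.5, 55.3 and 51.9. Acta2, the smooth muscle actin, was below it (82.3 and 82.2, percentile 44.9). Of the 19 measured, 7 were at or above the median gene, 7 between it and the near-background limit and 5 near background. The top 10% held 2 of them, and the median percentile was 34.5. Over all genes, 10.0% were in the top 10% and 25.5% near background. The smooth muscle counts in these 2 classes were close to both shares, and the endothelial count near background was close to the latter. Macrophage genes were led by those with wide lysosomal or myeloid roles, the protease Lgmn (636 and 566), Cd14 (485 and 417) and Lyz2 (449 and 359). The macrophage protein Cd68 had 80.3 and 66.8 (42.9) and the pan-leukocyte phosphatase Ptprc 40.6 and 33.6 (32.1). Of the 22 measured, none was in the top 10% and 3 were near background. Lymphocyte, mast cell and neutrophil genes had 15 of 23 near background and none in the top 10%, the highest being the T-cell receptor chain Cd3g (103 and 149).

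In the red cell, fat and nerve lists, more genes were near background than at or above the median gene. In the erythroid list, Hbb, a beta globin (1445 and 1790, percentile 97.8), and the transferrin receptor Tfrc (717 and 852, 92.9), which many dividing cells carry, were in the top 10%. The heme enzyme Alas2 was much dimmer in the ranking (31.5 and 26.5), and 7 of the 10 genes measured were near background. Of the 14 adipocyte genes, 8 were near background and 1 was above the median gene, the lipoprotein lipase Lpl (152 and 101). In the nerve list, Prph, which encodes the intermediate filament peripherin, had 2001 and 1676 (98.2), while 10 of the 19 measured were near background, among them the synaptic protein Snap25 (5.3 and 0.8). In the duct list, 7 of 16 were near background, including Pax2 (5.6 and 2.2). Of its 4 brightest members, Krt19, Epcam (423 and 429) and Emx2 (350 and 308) are also in the epithelial or granulosa lists. The other, Tekt1 (159 and 207, percentile 64.1), is in the duct list alone.

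**Figure D3:**
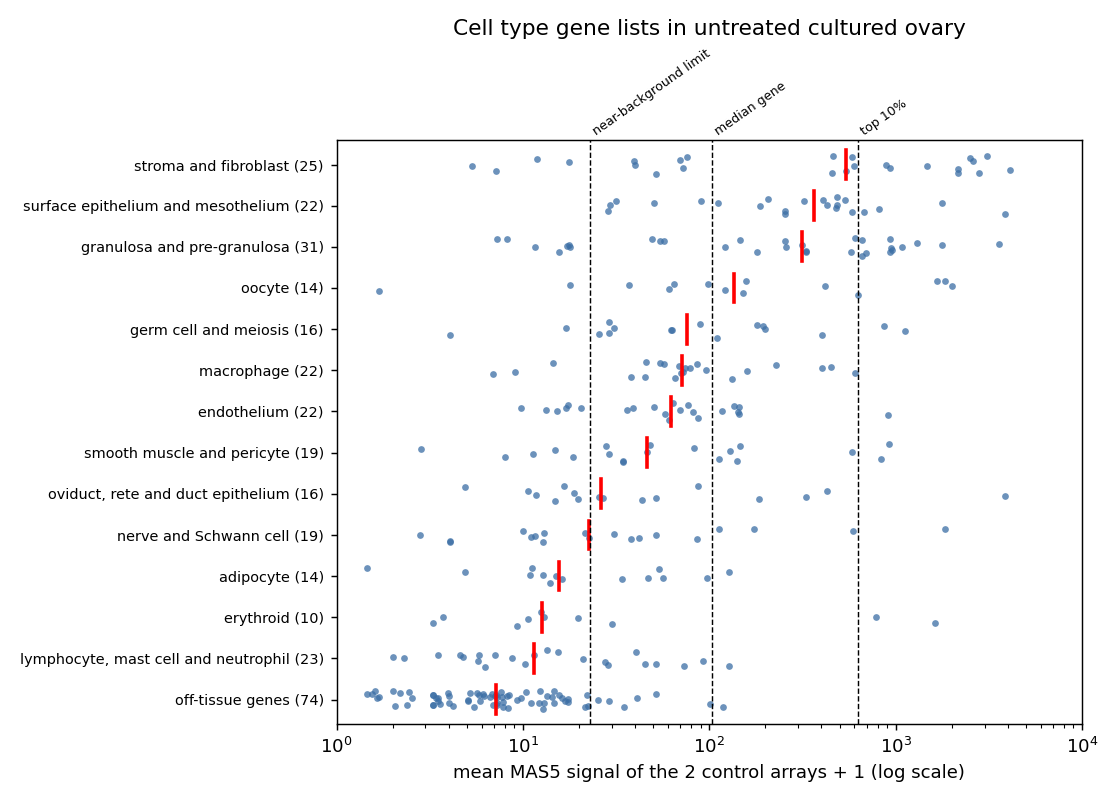
Mean MAS5 signal of the 2 control arrays + 1 (log scale) for each measured gene (points) of the cell type lists and the off-tissue genes, with list medians as red bars and 3 dashed limits. Stromal, epithelial and granulosa lists have the highest medians. The medians of the lymphocyte, erythroid, adipocyte and nerve lists lie to the left of the near-background limit, as does that of the 74 off-tissue genes. Single members of these lists lie to its right.

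Matrix genes were among the brightest outside protein synthesis. Within the collagen list, Col3a1 was followed by P4hb, a subunit of the enzyme that hydroxylates collagen (2701 and 2272, percentile 99.0), Col5a2 (2528 and 2287), Col1a1 (2297 and 2043) and Col1a2 (2198 and 2132), all chains of fibrillar collagens. Col4a1, of basement membrane collagen, was in the top 10% as well (674 and 636, percentile 90.5). The cartilage collagens Col2a1 (15.0 and 5.3) and Col9a1 (5.7 and 0.8) were near background. Of the 37 collagen genes measured, 10 were in the top 10%, 27 at or above the median gene and 5 near background, with a median percentile of 74.6. In the basement membrane and integrin list, Sparc, a collagen-binding glycoprotein, had 2742 and 2553 (99.2), the integrin subunit Itgb1 1997 and 1907 (98.4), Nid1, which links laminin to collagen IV, 1356 and 1186 (96.7) and Lamb1, a laminin chain, 1155 and 1015 (95.5). Of its 30 genes, 7 were in the top 10% and 4 near background, with a median percentile of 65.0.

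Among glycoproteins and proteoglycans, Dcn was followed by Ogn (2413 and 2578), Mfap4 (1558 and 1771) and Lum (1406 and 1536), of which Ogn and Lum belong to the same leucine-rich family as Dcn. On these probe sets Ogn, Mfap4 and Lum were all brighter on replicate 2. The direction for Ogn depended on the probe set. Among its others, some were brighter on replicate 1 (1946.3 and 1289.6, and 1554.3 and 1144.5) and another on replicate 2 (1414.6 and 1546.4). Fn1, the fibronectin gene, had 573 and 457 (percentile 86.9). Acan, the large cartilage proteoglycan, and Vtn, a liver-derived plasma protein, were near background (13.9 and 7.7, and 15.8 and 17.6). Of the 46 measured, 10 were in the top 10% and 3 near background. Matrix proteases and inhibitors were led by lysosomal enzymes and inhibitors: Ctsl (4257 and 3709), the cysteine protease inhibitor Cst3 (2174 and 1947), Ctsb (2157 and 1905) and Timp1, an inhibitor of metalloproteinases (2274 and 1703). Mmp10, a metalloproteinase, was at 0.5 and 1.1. Of the 33 measured, 13 were in the top 10%, 22 at or above the median gene and 3 near background, with a median percentile of 75.3.

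Respiration and protein synthesis filled the top of the metabolic ranking. Of the 37 nuclear genes of oxidative phosphorylation measured, 29 were in the top 10% and none near background, led by the cytochrome oxidase subunits Cox6c (3723 and 3473) and Cox7b (3206 and 3010). Their median percentile was 96.3, and that of the 24 genes of the TCA cycle was 91.3, with 15 in the top 10%. Mdh1, a malate dehydrogenase, was the brightest of the latter (1908 and 1890), and Pc, which makes oxaloacetate from pyruvate, the dimmest (38.7 and 36.2). The ranking held 47 ribosomal protein genes, not all of them in the list used here. Of the 28 listed ones measured under their own symbol, 26 were in the top 10%, with a median percentile of 99.8. The exceptions were Rpl28 (70.7 and 67.0) and Rpl30 (13.1 and 16.5). With probe sets annotated to several symbols included, Rpl28 was at percentile 99.5 and Rpl30 at 99.7. Likewise the respiratory gene Cox5a was at percentile 43.1 on its own probe set and 96.5 with shared ones. Shared probe sets may report another of their genes, and which probe set gives the level of these 3 was not tested. Translation factors had 16 of 18 in the top 10%, the exception near background being Eef1a2 (17.7 and 12.8), the form of muscle and neurons.

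Glycolysis genes ran from the top of the ranking to background. Pgk1 (1786 and 2551), Aldoa (2138 and 2051), Pgam1 (1910 and 1928) and Eno1 (1869 and 1811), enzymes of the pathway, were all at or above percentile 98.2. Ldha, which makes lactate, had 1573 and 1636 (97.8). Hk2, the insulin-responsive hexokinase, and the muscle isoform Pgam2 were near background (7.4 and 4.1, and 0.6 and 0.6). Of the 25 genes measured, 8 were in the top 10%, 15 at or above the median gene and 4 near background, with a median percentile of 56.7. Gapdh and Pkm had no probe set with their symbol alone. The genes of cholesterol synthesis and uptake were moderate and even: 25 of 28 were at or above the median gene, 2 in the top 10% and none near background. Npc2, a lysosomal cholesterol carrier (1214 and 1192), and Fdps, which makes farnesyl diphosphate (811 and 838), were the brightest, and Ebp (73.9 and 54.4) and Mvd (60.5 and 63.8) the dimmest.

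Fatty acid, antioxidant and iron genes were likewise described by their lists. Scd2, a desaturase, had 1910 and 1853, Hadhb, of mitochondrial beta-oxidation, 1312 and 1274, and the liver carrier Fabp1 2.6 and 0.7. Of the 28 fatty acid genes measured, 4 were in the top 10% and 22 at or above the median gene. Antioxidant genes were brighter, with 12 of 28 in the top 10% and a median percentile of 85.9. Txn1, the cytosolic thioredoxin (4660 and 4190), the glutathione transferases Gstp1 (3183 and 2841) and Gsta1 (2461 and 2315), and Sod1, the cytosolic superoxide dismutase (2961 and 3008), led them. In the iron list, 1 of 12 genes, the transferrin receptor Tfrc, was in the top 10%. The liver hormone Hamp was near background (14.4 and 14.3). The ferritin genes Fth1 and Ftl1 had no probe set with their symbol alone.

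**Figure D4:**
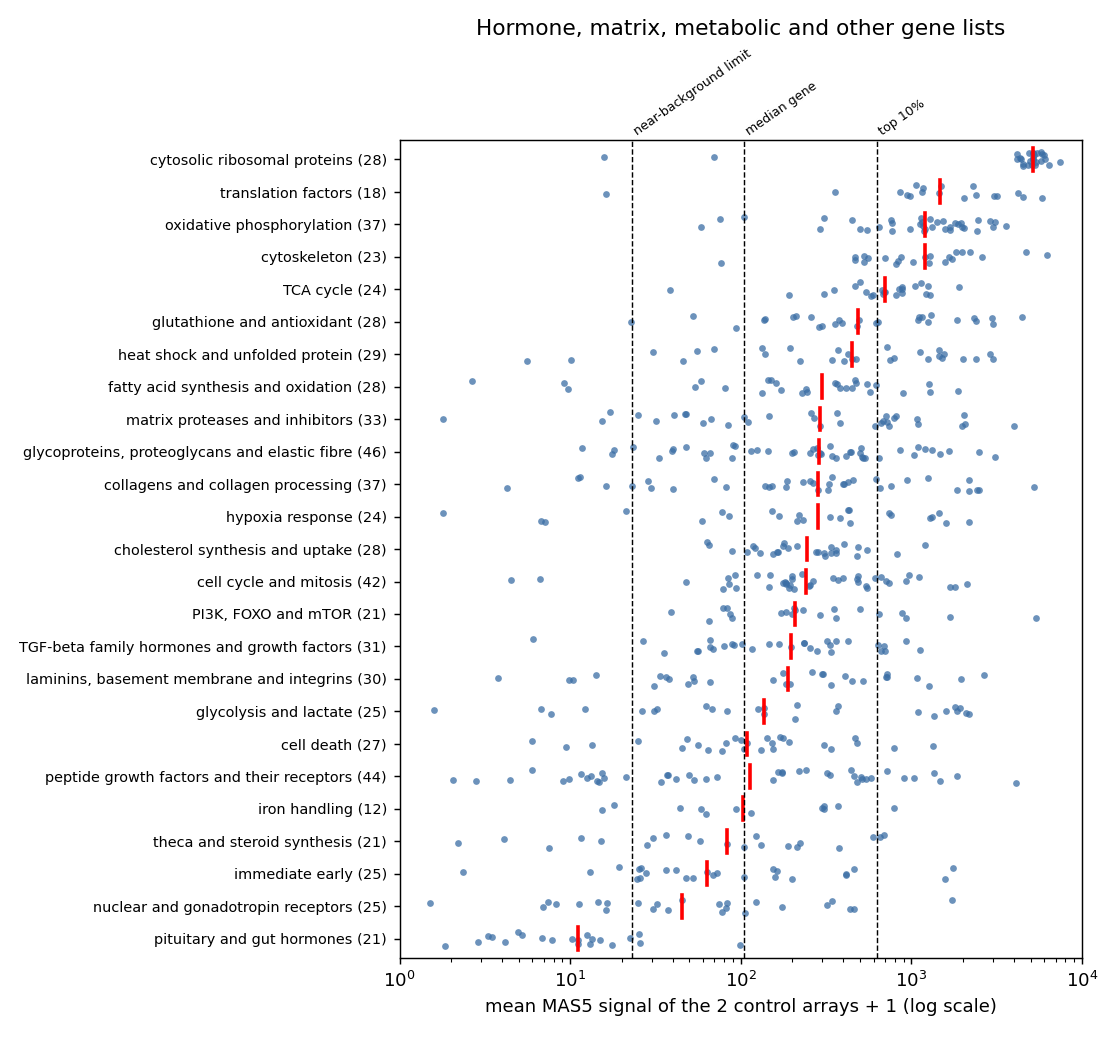
Mean MAS5 signal of the 2 control arrays + 1 (log scale) for each measured gene (points) of the hormone, matrix, metabolic and other lists, with list medians as red bars and 3 dashed limits. Ribosomal protein genes form a tight group near the right edge with 2 points far to the left (Rpl28 and Rpl30), and pituitary and gut hormones lie at the level of background.

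Most cell cycle genes were above the median gene. Pcna, the DNA polymerase clamp (2098 and 2150), Ccnb2, a mitotic cyclin (1693 and 1898), Cdkn1c, an inhibitor of cell cycle entry (1538 and 1850), and Ccnb1 (1010 and 1214) were the brightest cell cycle genes. All 4 were brighter on replicate 2. Of the 42 genes measured, 9 were in the top 10%, 34 at or above the median gene and 2 near background, Cdk6 (8.8 and 2.6) and Cdkn2a (1.6 and 5.4), with a median percentile of 70.8. In the PI3K, FOXO and mTOR list, apart from Rps6, Rheb, the activator of mTOR, had 1663 and 1688 (97.9), Cdkn1b, which restrains follicle activation, 808 and 1044 (94.4) and Foxo3, which does so too, 816 and 938 (93.9). Other probe sets of Rheb (mean 22.75), Cdkn1b (4.8) and Foxo3 (8.55 and 0.95) were far dimmer. None of the 21 genes of this list was near background on its brightest probe set. The anti-apoptotic Mcl1 (1302 and 1382) and its pro-apoptotic relative Bok (781 and 799) were the 2 cell death genes in the top 10% of 27 measured, and Bcl2 was near background (2.9 and 7.0).

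Several chaperone genes were among the brightest on the array. Hsp90ab1, the constitutive cytosolic chaperone, had 3027 and 3016, Hspa5, the chaperone of the endoplasmic reticulum, 2959 and 2782, and the mitochondrial Hspe1 2348 and 2451. Of the 29 genes measured, 13 were in the top 10% and 2 near background, Hspb2 (12.1 and 6.2) and Hspa1l (2.9 and 6.3). Immediate early genes had a median percentile of 39.8, with Ier3 (1924 and 1560) and Jund (1682 and 1472) in the top 10% and 3 of 25 near background. Egr3 (14.6 and 9.6) and Fosb (2.3 and 0.4) were among the latter. In the hypoxia list, 7 of 24 genes were in the top 10%, including Hif1a, the oxygen-regulated transcription factor (1437 and 1446), and Bnip3l, a mitophagy receptor (1259 and 1365), and 4 were near background, including Epo (1.0 and 0.6). Freshly dissected ovaries were not analysed here, so what the 2 days of culture contributed was not tested.

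Between the 2 control pools, the list medians furthest apart among lists with at least 5 genes above background were those of germ cell, oocyte, surface epithelium, macrophage and adipocyte genes. This is a comparison of 1 array with 1 array, and no test was possible. Over the 10591 genes above the near-background limit, 73 were over 2-fold apart (0.689%), 50 of them higher on replicate 1 (0.472%) and 23 on replicate 2 (0.217%). The median log2 difference, replicate 2 minus replicate 1, was 0.0085. Oocyte genes were higher on replicate 2 in 11 of 12 cases, where 51.5% of all genes were, with a median log2 difference of 0.29. For germ cell and meiosis genes this was 12 of 14 with a median of 0.41, and 2 of the 14 were over 2-fold apart, the cohesin Stag3 (64.6 and 155) and, named after its values were seen, Mov10l1 (16.6 and 39.3). Tle6, a partner of Ooep in the subcortical maternal complex, was among the 10 genes furthest in this direction when only genes at or above the median signal were ranked (711 and 1191). Smc1b, a meiotic cohesin subunit like Stag3, was another of these 10.

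Surface epithelium genes were higher on replicate 1 in 17 of 22 cases, where 48.3% of all genes were, with a median log2 difference of -0.29. Macrophage genes were also higher on replicate 1 in 17 of 19 cases (median -0.23), adipocyte genes in 5 of 6 (-0.23), matrix proteases and inhibitors in 24 of 30 (-0.15) and immediate early genes in 16 of 22 (-0.20). None of the epithelial or macrophage genes was over 2-fold apart. Ribosomal protein genes were higher on replicate 1 in 25 of 27 cases, but by a small amount (median -0.13). Medians of the metabolic lists were closer to 0, though not all were evenly split. Antioxidant genes were higher on replicate 1 in 21 of 27 cases (-0.088), and oxidative phosphorylation genes in 25 of 37 (-0.029). Glycolysis genes were higher on replicate 2 in 15 of 21 cases (0.083), TCA cycle genes in 16 of 24 (0.055), iron genes in 7 of 10 (0.091), cholesterol genes in 15 of 28 (0.028) and fatty acid genes in 14 of 25 (0.015). The medians were -0.035 for stroma and 0.067 for endothelium. What set the 2 pools apart was not tested.

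**Figure D5:**
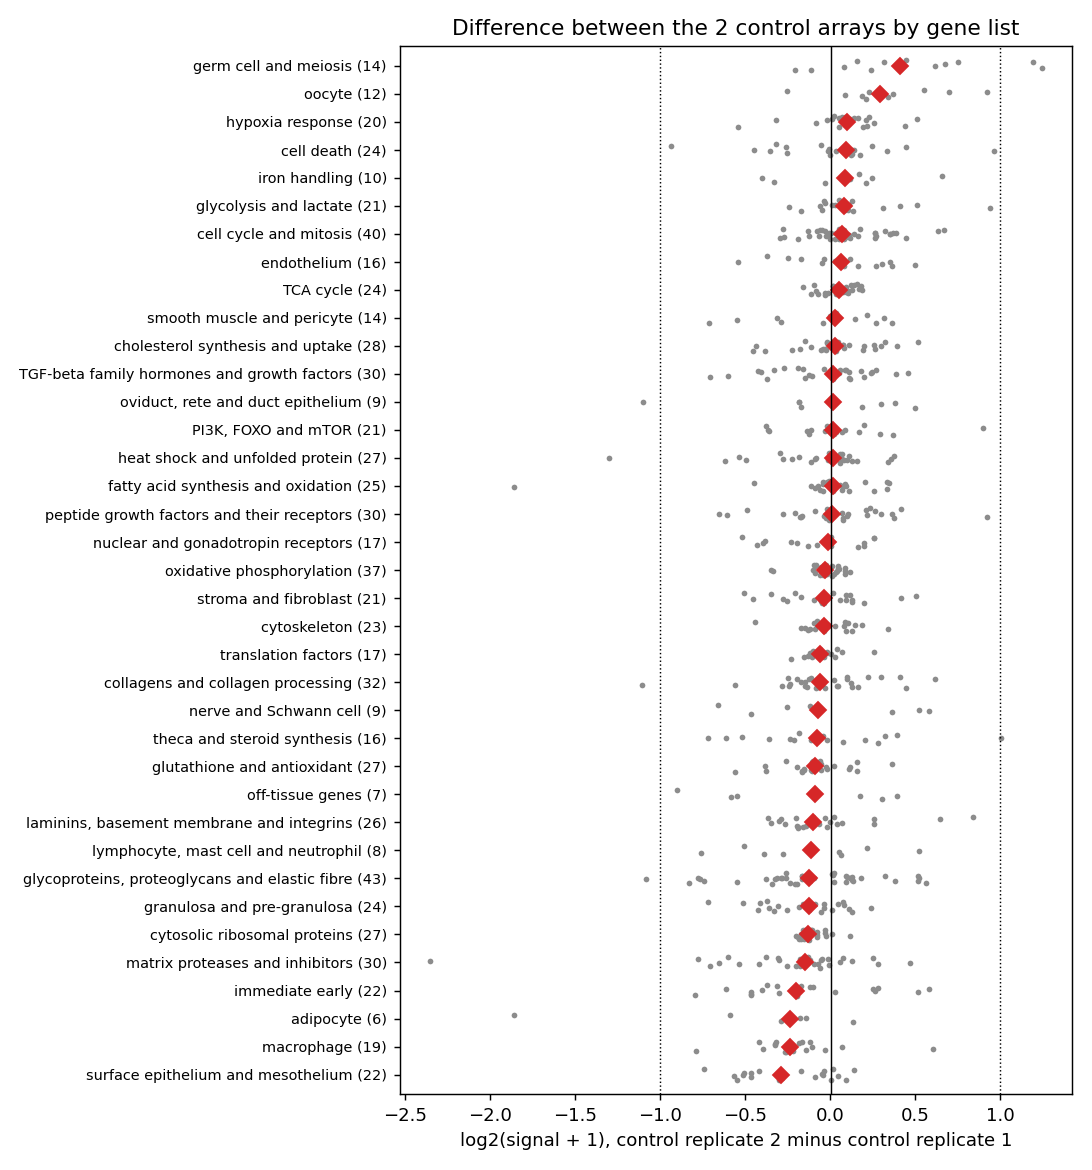
Log2(signal + 1) on control replicate 2 minus control replicate 1 for each gene above the near-background limit (grey points) and the median of each list with at least 5 such genes (red diamonds); the solid line is the median of all genes and the dotted lines a 2-fold difference. Germ cell and oocyte lists lie furthest to the right, with medians of 0.41 and 0.29, and surface epithelium, macrophage and adipocyte lists furthest to the left.

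Single genes are given here from those at or above the median signal. Mmp7, the epithelial metalloproteinase matrilysin, had 173.7 on replicate 1 and 33.2 on replicate 2, a 5.11-fold difference on the signal + 1 scale. The next in this direction included the chemokine Cxcl10 (201 and 53.0), Rsad2 (298 and 123) and Isg20 (156 and 59.8). Plac8 (260 and 89.8), Gpx2 (190 and 69.4), Adh1c (154 and 64.5), Chi3l1 (192 and 83.2), the synaptic vesicle gene Sv2b (1699 and 836) and Spetex2l1 (140 and 70.1) were the others named by the rule apart from Mmp7. In the opposite direction Fam111a, a protease linked to DNA replication, stood alone, with 144 and 596 (4.11-fold). After it came Stag3, Dpp6 (98.4 and 218), Prss35 (603 and 1174) and Clec2d2l2 (86.1 and 152), then Smc1b, Tle6, Nmral1 (208 and 346), Rnf31 (84.5 and 140) and the secreted C1qtnf12 (1210 and 1989). The fat-binding protein Fabp4, below the median signal, was also far apart (83.3 and 22.2).

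The choice of probe set bears on every level above. Of the 14217 genes, 4525 had 2 or more probe sets under their own symbol, and between the brightest and the dimmest of a gene the median ratio was 4.44 on the signal + 1 scale. Of the 541 such genes in the top 10%, 149 (27.5%) also had a probe set near background. Gja1, for example, had means of 3569, 31.9 and 8.45 on its 3 probe sets, and Kitlg 576, 82.7, 15.9 and 12.9 on its 4. Genes with 1 probe set were near background more often than genes with several (31.0% against 13.7%). The brightest probe set was kept for the latter, and how much this choice contributed was not tested.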

How the data were processed

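Whole-ovary RNA was measured on Affymetrix rat arrays. The authors deposited 1 linear intensity per probe set and array, a MAS5 signal according to tools listed per the submitters' processing notes, where its version is missing. MAS5 subtracts a mismatch estimate, which makes low signals noisy, and scales each array, so that both control arrays had a trimmed mean (2% off either end) of 125.0 and total RNA per ovary cannot be seen. Of 31099 probe sets, 57 Affymetrix controls were left out. Names came from GEO's platform annotation: 20826 probe sets had 1 symbol, 436 several and 9780 none. Entrez identifiers of 20764 were found in RefSeq (GRCr8), and 0 symbols changed.

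Analysis used Python 3.11.15 with pandas 2.3.3 and numpy 2.4.6, and was tested on simulated data. Log2 values carry a pseudocount of 1. With 1 group of 2 arrays no test was made, and precision rests on 2 arrays. Of 1128 genes in 39 lists, 968 were measured. Named genes were the 25 brightest, the 4 brightest and 2 dimmest of each list, a fixed set of follicle, stroma and vessel markers, and the 10 genes furthest apart in each direction among those at or above the median. The control arrays, lists and markers were chosen with earlier results of these data known.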

Additional observations from a re-analysis of the deposited data

How the results depend on the processing

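No paired analysis was possible because all values come from 1 group and no test was made. Averaging log2 values and quantile normalization left every list count within 1.5 times, and quantile normalization, a pseudocount of 16 and centring left the list differences between arrays within 0.139, the typical between-array difference. The share of genes within 2-fold was 99.7% with a pseudocount of 16 and 99.3% above the near-background limit.

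With the mean over all probe sets of a gene, counts in the top 10% became 1 for smooth muscle, 0 for endothelium, 1 for erythroid, 0 for iron and 2 for PI3K genes, and near-background counts 2 for TGF-beta, 1 for surface epithelium and 6 for immediate early genes. Tpm1 fell to percentile 68.3 and Igf2 to 57.4. With probe sets of several symbols, which also raise the limit of the top 10%, its counts became 0 for theca, 3 for TGF-beta, 4 for iron and 44 of 45 for ribosomal protein genes, of which 0 were near background.

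With the limit at the 30th percentile, near-background counts became 1 for oocyte, germ cell, glycoprotein and protease genes, 3 for granulosa, smooth muscle, duct and collagen genes, 5 for receptors and adipocyte genes, 9 for growth factors, 2 for endothelium and 0 for antioxidant, iron, ribosomal and translation genes. With it at 36.2, the 95th percentile of the off-tissue genes, they became 6 for germ cell, 8 for theca, 3 for TGF-beta and surface epithelium, 9 for smooth muscle and immediate early, 7 for laminin and glycolysis, and 5 for glycoprotein and protease genes.

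Without 1 array, near-background counts ran up to 5 for glycoproteins (replicate 1 left out), to 6 for immediate early genes (replicate 2 left out) and down to 0 for antioxidant genes (replicate 1 left out), and 1 macrophage gene entered the top 10% (replicate 2 left out).

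Including members near background, the median difference between arrays became -0.48 for pituitary hormones, -0.50 for lymphocyte, 0.011 for erythroid, -0.26 for nerve and -0.18 for duct genes; with the mean over probe sets it was -0.28 for lymphocyte genes.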

Other observations

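Many bright probe sets carry no single gene name and are missing from the ranking. Among the 100 brightest probe sets of the control arrays, 15 had no symbol and 33 had several. Of the 9780 probe sets with no symbol, 137 had a mean signal in the range of the top 10% of genes, and 5729 (58.6%) were near background, against 25.5% of the named genes.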
